A study of Homo sapiens with 9 samples.

Results

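The genes of the mitochondrial carrier family, SLC25, were followed through differentiation of the human embryonal carcinoma line NCCIT and through exposure of its embryoid bodies to ethanol and to an additive called FA. Members were all genes named SLC25A followed by a number on a transcript cluster (the array's unit for a gene) with a single gene symbol. SLC25A33, SLC25A37 and SLC25A51, the 3 members with 2 clusters, are represented by the brighter of the 2 (mean of 9 arrays). This gave 46 SLC25A genes among 18417 genes. NCCIT is an established line derived from a germ cell tumour, and it aggregates into embryoid bodies, floating clumps of differentiating cells, when it cannot attach. Cultures were kept for 7 or 21 days with 50 mM ethanol (EtOH), with ethanol and FA (EtOH+FA), with FA alone, or untreated, and 1 further array came from undifferentiated cells. The day 21 arrays are called embryoid bodies here, though their titles do not name the culture form. What FA stands for and its dose are not given in the sources, and the treatment protocol in the labels describes ethanol over 7 days with daily medium changes and gives no protocol for the 21-day cultures. Each of these 9 conditions had 1 array, all conditions shared the same line, and no label says whether the arrays came from separate cultures. The series was designed to profile genes altered by ethanol in embryoid bodies.

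SLC25 carriers sit in the inner mitochondrial membrane, with a few in other membranes, and pass metabolites between the cytosol and the matrix that the membrane would otherwise keep apart. Adenine nucleotide carriers trade cytosolic ADP for matrix ATP, and the phosphate carrier supplies the phosphate for ATP synthesis. Other carriers move amino acids, citrate and other carboxylates, acylcarnitines, nucleotides and cofactors, iron or glutathione, and so tie glycolysis, fat oxidation, haem synthesis and redox balance in the cytosol to the mitochondrion. Cultured pluripotent cells rely strongly on glycolysis, and their mitochondria and metabolite traffic are remodelled as they differentiate.

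Promoter windows are shown for 6 of the members with differences described below. SLC25A20, SLC25A24 and SLC25A46 rose by day 21, SLC25A44 and SLC25A18 fell by day 21, and SLC25A36 rose in embryoid bodies. The windows of SLC25A17, SLC25A40 and SLC25A51, which also rose by day 21, are not shown. Each window is the 250 bases before the gene's start in RefSeq's GRCh38.p14 table, written 5′ to 3′ on the gene's strand, and capitals mark motif matches. The window of SLC25A20 lies at chr3:48898883-48899132 (minus strand) and that of SLC25A24 at chr1:108200344-108200593 (minus strand). The window of SLC25A46 lies at chr5:110738757-110739006 (plus strand) and that of SLC25A44 at chr1:156193854-156194103 (plus strand). The window of SLC25A18 lies at chr22:17563248-17563497 (plus strand) and that of SLC25A36 at chr3:140941586-140941835 (plus strand).
SLC25A20: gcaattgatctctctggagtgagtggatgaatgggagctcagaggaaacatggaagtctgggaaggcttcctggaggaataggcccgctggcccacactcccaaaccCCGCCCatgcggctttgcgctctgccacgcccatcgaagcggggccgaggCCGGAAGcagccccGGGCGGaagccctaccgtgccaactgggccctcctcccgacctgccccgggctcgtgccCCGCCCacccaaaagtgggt
SLC25A24: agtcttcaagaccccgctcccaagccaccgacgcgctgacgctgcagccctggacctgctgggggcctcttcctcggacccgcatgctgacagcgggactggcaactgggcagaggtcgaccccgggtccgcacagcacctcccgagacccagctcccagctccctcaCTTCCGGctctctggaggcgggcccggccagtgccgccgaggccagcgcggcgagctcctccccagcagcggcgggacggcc
SLC25A46: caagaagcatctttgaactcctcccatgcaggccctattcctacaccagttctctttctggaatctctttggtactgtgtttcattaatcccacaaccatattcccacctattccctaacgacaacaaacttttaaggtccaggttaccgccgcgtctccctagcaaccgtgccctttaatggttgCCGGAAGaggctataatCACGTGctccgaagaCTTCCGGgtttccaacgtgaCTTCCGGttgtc
SLC25A44: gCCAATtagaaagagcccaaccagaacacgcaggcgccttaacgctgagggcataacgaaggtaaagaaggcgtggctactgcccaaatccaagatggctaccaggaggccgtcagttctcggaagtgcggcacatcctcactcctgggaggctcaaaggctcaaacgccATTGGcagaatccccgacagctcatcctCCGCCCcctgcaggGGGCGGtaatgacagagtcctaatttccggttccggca
SLC25A18: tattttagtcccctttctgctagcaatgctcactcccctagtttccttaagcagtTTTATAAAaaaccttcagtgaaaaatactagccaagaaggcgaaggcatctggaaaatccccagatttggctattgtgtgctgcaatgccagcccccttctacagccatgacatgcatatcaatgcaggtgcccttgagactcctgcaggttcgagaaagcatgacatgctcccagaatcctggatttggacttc
SLC25A36: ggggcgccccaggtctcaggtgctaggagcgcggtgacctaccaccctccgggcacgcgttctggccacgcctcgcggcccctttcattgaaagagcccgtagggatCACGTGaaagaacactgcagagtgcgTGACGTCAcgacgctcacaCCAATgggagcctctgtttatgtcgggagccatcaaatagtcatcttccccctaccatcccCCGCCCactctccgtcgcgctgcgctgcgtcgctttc

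Of the 46 members, 39 had an entry in that table, and SLC25A2, SLC25A16, SLC25A30, SLC25A32, SLC25A35, SLC25A37 and SLC25A41 are named only. The motifs were searched on both strands, with overlapping matches allowed, in the windows of the 39 members and of 15843 protein-coding genes. The ETS core, CCGGAAG, a recognition core of ETS transcription factors such as the GABP complex, was in 8 of 39 member windows (20.5%), against 11.8% of all windows. Among members it was in 4 of 6 windows of genes that rose by day 21 (SLC25A17, SLC25A20, SLC25A24 and SLC25A46), in 2 of 9 of those that fell and in 2 of 17 of the other tested members. It was absent from the windows of SLC25A40 and SLC25A51, which also rose, whereas all risers printed above hold it. The window of SLC25A46 held it 3 times, starting 64, 32 and 12 bases before the gene's start, and that of SLC25A20 held it 93 bases before the start. The E-box CACGTG was in 7 member windows (17.95%, against 7.84% of all), the cyclic AMP response element TGACGTCA in 3 (7.69%, against 2.32%) and the CCAAT box in 17 (43.6%, against 34.5%). The GC box GGGCGG was in 27 (69.2%, against 56% of all), the TATA box TATAAA in 3 (7.69%, against 9.23%), and CGCATGCG, the core of the NRF1 site, in 0 (against 2.49%). Split by day as for the ETS core (rose, fell, other tested), the E-box was in 2 of 6, 0 of 9 and 4 of 17 windows. The CCAAT box was in 1 of 6, 4 of 9 and 9 of 17, and the GC box in 4 of 6, 5 of 9 and 14 of 17. These splits were not tested, and no share was taken for all genes that rose or fell. The window of SLC25A36 held the E-box, the cyclic AMP response element, the CCAAT box and the GC box, and that of SLC25A18 held only overlapping TATA box matches. A match describes the letters of the window and nothing about a factor's binding.

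The arrays gave log2 values, on which a difference of 1 is a 2-fold change. A gene was called dim, and left out of the tests, when its highest value over the 9 arrays did not exceed 7.71, the median of all values. By this measure 37 members were tested, 30 of them above 7.71 on all 9 arrays and 7 on some arrays only, and 9 were dim. The dim members were SLC25A2 (ornithine carrier of restricted expression), SLC25A21 (oxoadipate carrier), SLC25A25 and SLC25A41 (ATP-Mg/phosphate carriers), SLC25A27 (a brain relative of the uncoupling proteins), SLC25A31 (the adenine nucleotide carrier of testis), SLC25A52 (a mitochondrial NAD+ carrier) and SLC25A45 and SLC25A48. Their values lay between 4.03 and 7.54. The dim member nearest the limit was SLC25A48, with a maximum of 7.54, and the tested members nearest to it were SLC25A34 and SLC25A53, each with a maximum of 7.82. The tested members varied little: the range of a member over the 9 arrays was 0.19 to 1.31, with a median of 0.56, and was 1 or more only for SLC25A30 (1.31) and SLC25A20 (1.01). SLC25A42, a CoA carrier, varied least, between 8.90 and 9.08. SLC25A4 and SLC25A5 have close paralogs, as do SLC25A51 and SLC25A52, and signal shared between such copies cannot be separated here.

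**Figure D1:**
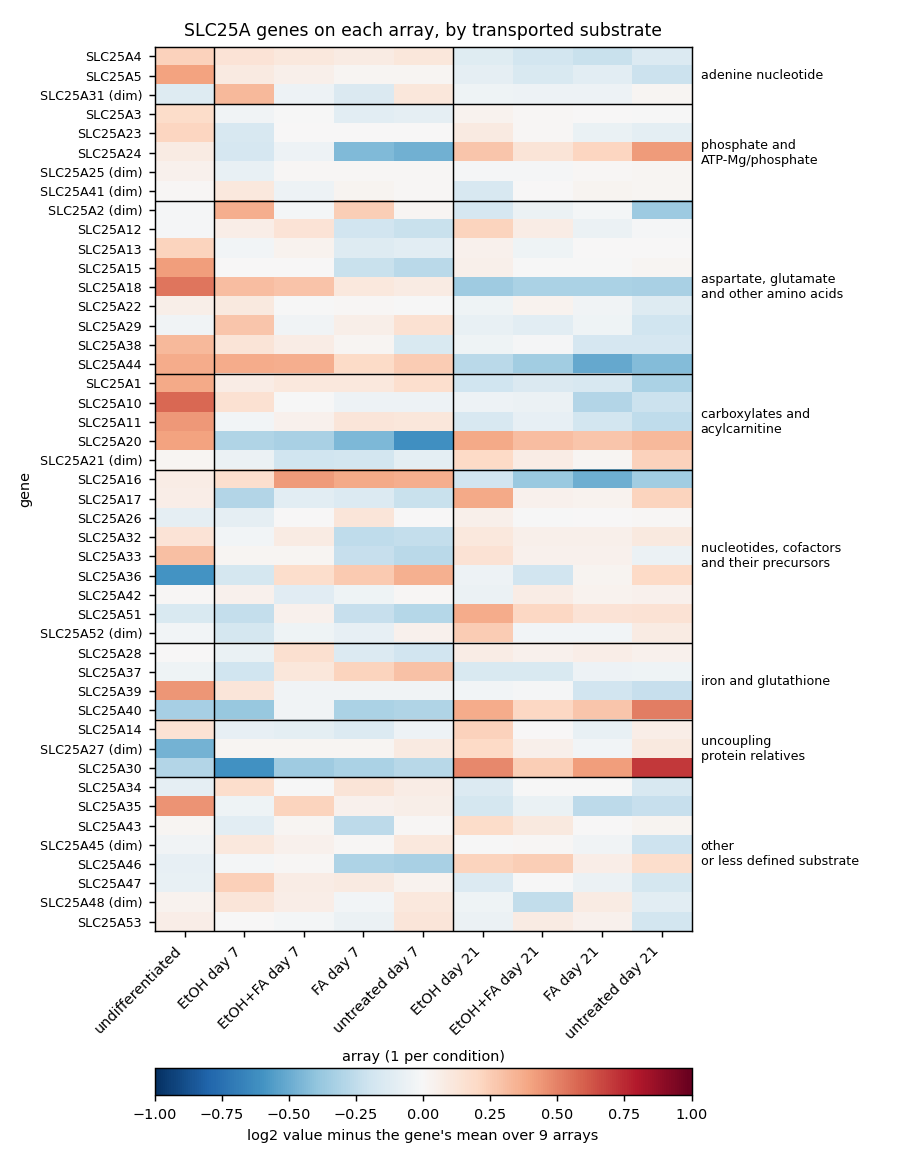
Log2 value of each of the 46 SLC25A genes on each of the 9 arrays, minus that gene's mean over the 9 arrays, by transported substrate; dim genes are marked. The day 21 columns differ from the day 7 columns in blocks of either sign, SLC25A30, SLC25A20, SLC25A40 and SLC25A24 being higher and SLC25A44, SLC25A16 and SLC25A18 lower at day 21.

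All 11 measured markers of NCCIT cells, SOX2, LIN28A and DNMT3B among them, were above the dim limit, and all 7 male germ cell markers were dim. The summed log2 level of the 11 NCCIT markers was 128.85 in undifferentiated cells, 126.32 to 127.16 at day 7 and 110.24 to 113.96 at day 21, and by day 21 10 of the 11 fell and LIN28B rose. The sum of the 7 measured neural markers was 53.27, then 51.59 to 53.65, then 61.16 to 62.04 over the same stages, and by day 21 4 of the 6 tested rose and 1 fell, ELAVL3 being dim. Of 7 mesenchymal markers 2 rose by day 21 (PDGFRA and COL3A1) and 3 were dim. Of 12 muscle markers 8 were dim and DES fell by 0.66 by day 21, of 8 erythroid markers 4 were dim and HBE1 rose, and among 8 endoderm and liver markers AFP, ALB, TTR and FOXA2 were dim and GATA6 rose by 0.80. Most tested NCCIT and neural markers passed for day and for differentiation. Of the 4 tested markers each of the erythroid, muscle, and endoderm and liver lists, 1, 1 and 1 passed for day. For differentiation, 1, 1 and 0 of them passed. Over all genes, 48.9% passed for day and 28.1% for differentiation. The neural marker NCAM1 was also 0.47 higher with ethanol (limma adjusted p = 0.0227). The part of the markers in the SLC25A results was not tested. In bulk RNA, fewer cells of a type and less RNA per cell cannot be told apart. Over all clusters, the EtOH array of day 7 stood somewhat apart, its mean correlation within that day being 0.990, against 0.994 to 0.995 for the remaining 3.

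The day comparison asked how the carriers differed between older and younger embryoid bodies. By day 21, 7 SLC25A genes rose and 11 fell, while 19 of the 37 tested did not pass. The risers included SLC25A30, an uncoupling protein relative, at 1.80-fold, SLC25A20, which carries acylcarnitines into mitochondria for fat oxidation, at 1.67-fold, and SLC25A40, a relative of the mitochondrial glutathione carrier, at 1.51-fold. The genes that fell included SLC25A44, a carrier of branched-chain amino acids, SLC25A16, a carrier linked to coenzyme A, and the glutamate carrier SLC25A18, which were 1.61-fold, 1.61-fold and 1.44-fold lower. One additive model was fitted per gene with limma over all 9 arrays, and p-values were adjusted over 12254 genes with a threshold of 0.05. Members passed at about the rate of all genes, 18 of 37 (48.6%) against 48.9%. The upward share was 18.9% against 26.3% of all genes and the downward share 29.7% against 22.6%, but with each array centred on its median 12 members rose and 7 fell, so the balance between directions depended on the scaling. The median day difference was 0.01 over the members and -0.01 over all genes. No condition was replicated, so the residual of the additive fit takes the place of replicate error, holds any true interaction as well, and gives p-values that reflect the scatter among these arrays alone, possibly technical.

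Array values of a day are listed in the order EtOH, EtOH+FA, FA and untreated. Among the carboxylate and acylcarnitine carriers, SLC25A20 had 8.39, 8.32, 8.29 and 8.34 at day 21, against 7.72, 7.69, 7.57 and 7.40 at day 7. All 4 day 21 arrays lay above all 4 day 7 arrays, and the difference was 0.74 ± 0.063 (log2, SE of the fit, adjusted p = 4.59e-05). Apart from the EtOH array, its day 7 arrays lay under the dim limit. The other 3 tested carriers of the group fell: SLC25A1, which exports citrate for lipid synthesis, by 0.32 (adjusted p = 0.00208), SLC25A11, the oxoglutarate-malate carrier of the malate-aspartate shuttle, by 0.23 (adjusted p = 0.0112), and SLC25A10, the dicarboxylate carrier, by 0.17 (adjusted p = 0.0282). SLC25A1 had 10.14, 10.19, 10.18 and 10.02 at day 21, against 10.42, 10.44, 10.45 and 10.51 at day 7. SLC25A11 had 10.74, 10.81, 10.72 and 10.64 at day 21, against 10.87, 10.94, 11.02 and 11.01 at day 7. The days did not overlap for either gene, while SLC25A10 was the single called member whose days overlapped, narrowly, with 8.37 to 8.61 at day 21 and 8.61 to 8.82 at day 7.

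Of the 8 tested amino acid carriers, 3 fell by day 21 and 0 rose. For this and the other groups, the shares over all genes were 22.6% down and 26.3% up. With each array centred on its median, SLC25A29 lost its call and SLC25A15 passed upward (0.19, limma adjusted p = 0.0391). SLC25A44 had 8.98, 8.89, 8.73 and 8.81 at day 21, against 9.61, 9.61, 9.44 and 9.50 at day 7. Its lowest day 7 array lay well above its highest day 21 array, and the difference of -0.69 ± 0.0455 had the smallest adjusted p of the family (1.11e-05). SLC25A18, a mitochondrial glutamate carrier, had 7.60, 7.63, 7.64 and 7.63 at day 21, against 8.26, 8.23, 8.06 and 8.03 at day 7. The day 21 values were nearly identical to each other and lay under the dim limit of 7.71, where RMA, the authors' normalization, compresses differences. The fall was 0.52 (SE 0.059, adjusted p = 0.000212). SLC25A29, a carrier of basic amino acids, was lower by a smaller amount, -0.22 ± 0.074 (adjusted p = 0.0399). The aspartate/glutamate carriers of the malate-aspartate shuttle did not pass, with 0.11 ± 0.058 for SLC25A12 and 0.06 ± 0.052 for SLC25A13. Nor did the glutamate carrier SLC25A22 (-0.07 ± 0.052), the ornithine carrier SLC25A15 (0.14 ± 0.061) or the glycine carrier SLC25A38, which feeds haem synthesis (-0.12 ± 0.054).

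Both tested adenine nucleotide carriers fell by day 21. SLC25A4, the form most abundant in muscle and heart, had 9.65, 9.59, 9.55 and 9.64 at day 21, against 9.91, 9.88, 9.86 and 9.89 at day 7, a difference of -0.27 ± 0.045 (adjusted p = 0.00147). SLC25A5, the form of dividing cells, had 12.73, 12.66, 12.71 and 12.60 at day 21, against 12.91, 12.87, 12.84 and 12.84 at day 7, a difference of -0.19 ± 0.050 (adjusted p = 0.0162). Neither overlapped between days. Of the 3 tested phosphate and ATP-Mg/phosphate carriers, the calcium-regulated SLC25A24 rose by 0.55 ± 0.11 (adjusted p = 0.00348), with 10.57, 10.42, 10.51 and 10.72 at day 21, against 10.12, 10.24, 9.85 and 9.81 at day 7. Its day 7 arrays with ethanol lay above those without, and the days did not overlap. The phosphate carrier SLC25A3 (0.07 ± 0.046) and the calcium-regulated SLC25A23 (0.02 ± 0.066) did not pass.

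Of 8 tested carriers of nucleotides, cofactors and their precursors, 2 rose and 1 fell by day 21. SLC25A16 had 8.77, 8.60, 8.48 and 8.62 at day 21, against 9.14, 9.39, 9.35 and 9.33 at day 7, and fell by 0.69 (SE 0.083, adjusted p = 0.000312). SLC25A51, the mitochondrial NAD+ carrier, had 8.83, 8.67, 8.60 and 8.61 at day 21, against 8.22, 8.50, 8.23 and 8.17 at day 7, a difference of 0.39 ± 0.071 (adjusted p = 0.00248). SLC25A17, a carrier of CoA and related cofactors in the peroxisomal membrane, had 9.98, 9.64, 9.63 and 9.82 at day 21, against 9.30, 9.49, 9.46 and 9.37 at day 7, a difference of 0.36 ± 0.089 (adjusted p = 0.0109). None of these 3 overlapped between days. The second cluster of SLC25A51, which was not used in the fit, had 7.47 to 7.69 at day 21 and 6.75 to 7.33 at day 7, also without overlap. The pyrimidine nucleotide carriers SLC25A33 (0.16 ± 0.059) and SLC25A36 (-0.16 ± 0.088) did not pass, nor did the folate and flavin carrier SLC25A32 (0.19 ± 0.069), the S-adenosylmethionine carrier SLC25A26 (0.01 ± 0.056) or SLC25A42 (0.05 ± 0.057).

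In the iron and glutathione group, SLC25A40 rose by 0.60 ± 0.098 (adjusted p = 0.00153), with 10.45, 10.28, 10.35 and 10.59 at day 21, against 9.70, 10.05, 9.76 and 9.78 at day 7. Its relative SLC25A39, a mitochondrial glutathione carrier, differed by -0.12 ± 0.056 and the mitochondrial iron carriers SLC25A37 and SLC25A28 by -0.21 ± 0.077 and 0.11 ± 0.067, and none of these 3 passed. Among uncoupling protein relatives, SLC25A30 had 8.49, 8.25, 8.43 and 8.72 at day 21, against 7.41, 7.65, 7.69 and 7.73 at day 7. It rose by 0.85 ± 0.087 (adjusted p = 0.000122), the largest day difference of the tested members, and most of its day 7 values lay under the dim limit. Its relative SLC25A14 differed by 0.15 ± 0.056 and did not pass. In the last group, SLC25A46, an outer membrane protein that acts in mitochondrial dynamics, had 10.80, 10.83, 10.64 and 10.75 at day 21, against 10.56, 10.59, 10.27 and 10.26 at day 7. It rose by 0.34 ± 0.060 (adjusted p = 0.0024), and the arrays with ethanol were the higher ones at day 7 and at day 21. SLC25A35 (-0.25 ± 0.063, adjusted p = 0.0112) and the liver-associated SLC25A47 (-0.20 ± 0.062, adjusted p = 0.0268), both near the dim limit, fell. SLC25A35 was above that limit on 2 of the 9 arrays only, and all its day 21 values lay under it. SLC25A34 (-0.17 ± 0.065), SLC25A43 (0.16 ± 0.067) and SLC25A53 (-0.04 ± 0.074) did not pass.

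The 4 arrays of day 21 and the 4 of day 7 did not overlap for 17 of the 37 tested members (45.9%), against 46.0% of all genes, and these were the called members other than SLC25A10. The calls of 13 of the 18 members held in every alternative that tested them (the stricter filter, on the mean over the arrays, left out SLC25A35). Those of SLC25A5, SLC25A10, SLC25A29 and SLC25A47 were lost with centring (for SLC25A29 also with no filter on dim genes) and without the FA or the untreated array of day 7, and SLC25A11 was lost without the FA array of day 7 (adjusted p = 0.0524). Over the leave-outs that ended a call, the adjusted p was 0.0538 to 0.0665 for SLC25A5, 0.0731 to 0.125 for SLC25A10, 0.0781 to 0.131 for SLC25A29 and 0.0505 to 0.0978 for SLC25A47. These leave-outs also included the untreated array of day 21 for all 4 genes, the EtOH array of day 21 for all but SLC25A5, the EtOH+FA array of day 21 for all but SLC25A10, the FA array of day 21 for SLC25A10 and the EtOH array of day 7 for SLC25A29.

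**Figure D2:**
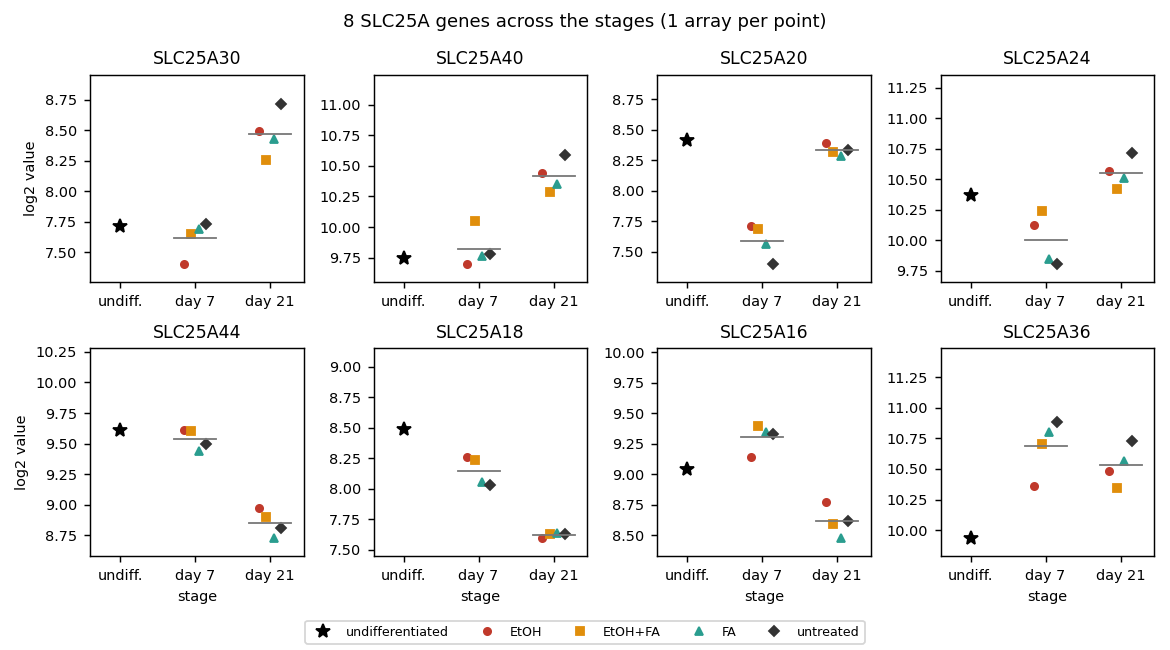
Log2 values (vertical axis) of 8 SLC25A genes by stage (horizontal axis), with 1 point per array, symbols for the treatment and a grey line at the mean of the 4 arrays of a day. SLC25A30 and SLC25A40 are higher at day 21 alone, SLC25A20 is low at day 7 alone, SLC25A44, SLC25A18 and SLC25A16 are lowest at day 21, and SLC25A36 is lowest in undifferentiated cells.

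The differentiation comparison set embryoid bodies against the undifferentiated cells they were made from. In embryoid bodies 14 SLC25A genes fell, 2 rose and 21 did not pass. The 14 included all 4 tested carboxylate and acylcarnitine carriers, both tested adenine nucleotide carriers and 5 of 8 amino acid carriers, and the 2 that rose were SLC25A36 and SLC25A30. The effect is the fitted level of untreated embryoid bodies (mean of the days, estimated from all 8 embryoid body arrays) minus the single undifferentiated array, whose error is taken to equal that of the rest. Members passed in 43.2% of cases, against 28.1% of all genes. They fell in 37.8%, against 17.2% of all genes, and rose in 5.41%, against 11.0%. With each array centred on its median, 15 fell and 1 rose, SLC25A3 being gained (adjusted p = 0.0314) and SLC25A30 lost (adjusted p = 0.0803). The median difference was -0.13 over the members and -0.05 over all genes. The undifferentiated array lay above all 8 embryoid body arrays for 16 members (43.2%), against 26.9% of all genes, and below all 8 for SLC25A36 (2.70%), against 14.6%.

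Among carboxylate carriers, SLC25A10 was 8.37 to 8.82 over the 8 embryoid body arrays, against 9.23 in undifferentiated cells, and fell by 0.69 (SE 0.085, adjusted p = 0.00158), the largest fall of the family. SLC25A11 was 10.64 to 11.02 in embryoid bodies, against 11.33, a difference of -0.51 ± 0.095 (adjusted p = 0.00661). SLC25A1 was 10.02 to 10.51 in embryoid bodies, against 10.71, a difference of -0.45 ± 0.092 (adjusted p = 0.00989). All 3 genes had every embryoid body array under the undifferentiated one and also fell by day 21. SLC25A20 differed by -0.52 ± 0.10 (adjusted p = 0.00906), but its difference rested on day 7: the untreated array was 1.01 lower than undifferentiated cells (8.42) at day 7 and 0.08 lower at day 21.

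The amino acid carriers SLC25A18 (-0.66 ± 0.098, adjusted p = 0.00296), SLC25A15 (-0.53 ± 0.10, adjusted p = 0.00736), SLC25A44 (-0.46 ± 0.075, adjusted p = 0.00414), SLC25A38 (-0.46 ± 0.089, adjusted p = 0.00787) and SLC25A13 (-0.28 ± 0.087, adjusted p = 0.0475) fell. SLC25A18 was 7.60 to 8.26 in embryoid bodies, against 8.49 in undifferentiated cells. SLC25A15 was 8.19 to 8.51 in embryoid bodies, against 8.88, and SLC25A38 was 9.32 to 9.62, against 9.82. For these 3 genes the undifferentiated array was the highest of the 9. SLC25A44 was an exception, since its undifferentiated value of 9.61 lay within the day 7 values: the untreated array differed from it by -0.11 at day 7 and by -0.80 at day 21. SLC25A12, SLC25A22 and SLC25A29 did not pass, with differences of -0.10 ± 0.095, -0.11 ± 0.086 and 0.06 ± 0.12.

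SLC25A5 was 12.60 to 12.91 in embryoid bodies, against 13.22 in undifferentiated cells, and SLC25A4 was 9.55 to 9.91, against 10.01. SLC25A5 fell by 0.47 (SE 0.083, adjusted p = 0.00551) and SLC25A4 by 0.24 (SE 0.074, adjusted p = 0.0429). The phosphate carrier SLC25A3 was 11.54 to 11.68 in embryoid bodies, against 11.83, below the undifferentiated array on all 8, with a difference of -0.23 ± 0.076 that missed the threshold (adjusted p = 0.0524). SLC25A24 (-0.13 ± 0.18) and SLC25A23 (-0.26 ± 0.11) did not pass. SLC25A39 was 10.77 to 11.13 in embryoid bodies, against 11.45, and fell by 0.55 (SE 0.093, adjusted p = 0.00476). SLC25A35, which resembles a yeast oxaloacetate carrier, was 7.25 to 7.73 in embryoid bodies, against 7.96, a difference of -0.59 ± 0.10 (adjusted p = 0.00554). It exceeded the dim limit only on the undifferentiated array and the EtOH+FA array of day 7, so its call is not independent of the filter. Each of these genes had its highest value in undifferentiated cells, SLC25A24 excepted.

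The pyrimidine nucleotide carriers SLC25A36 and SLC25A33 moved in opposite directions. SLC25A36 had 9.94 in undifferentiated cells, 10.36, 10.71, 10.80 and 10.89 at day 7 and 10.49, 10.34, 10.56 and 10.73 at day 21. All 8 embryoid body arrays were higher, by 0.95 and 0.79 for the untreated arrays of day 7 and day 21, and the fitted rise was 0.81 ± 0.15 (1.76-fold, adjusted p = 0.00582). SLC25A33 was 9.34 to 9.74 in embryoid bodies, against 9.90, and fell by 0.43 (SE 0.097, adjusted p = 0.0142). SLC25A30 rose by 0.47 ± 0.14 (adjusted p = 0.0438) with a rise that lay at day 21: its untreated array differed from undifferentiated cells (7.71) by 0.02 at day 7 and by 1.00 at day 21. SLC25A40 had the same shape, with untreated differences of 0.04 at day 7 and 0.85 at day 21, and its mean difference of 0.39 ± 0.16 did not pass. The other 14 members that did not pass had differences from -0.22 (SLC25A32) to 0.12 (SLC25A37).

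No alternative could leave out the single undifferentiated array. The calls of 12 of the 16 members held in the alternatives that tested them, SLC25A35 again being left out by the stricter filter. SLC25A4, SLC25A13 and SLC25A30 lost theirs without a filter on dim genes (adjusted p = 0.0606 to 0.0707) and without the FA or the untreated array of day 7 or the EtOH, EtOH+FA or untreated array of day 21, and SLC25A4 and SLC25A13 also without the FA array of day 21. The adjusted p over these leave-outs was 0.0766 to 0.126 for SLC25A4, 0.0571 to 0.138 for SLC25A13 and 0.0680 to 0.125 for SLC25A30, and SLC25A33 lost its call without the untreated array of day 7 (adjusted p = 0.0564). With both comparisons combined, 8 members fell both in embryoid bodies and by day 21 (SLC25A1, SLC25A4, SLC25A5, SLC25A10, SLC25A11, SLC25A18, SLC25A35 and SLC25A44). SLC25A13, SLC25A15, SLC25A33, SLC25A38 and SLC25A39 fell in embryoid bodies with no call for day. SLC25A30 rose in both comparisons, SLC25A20 fell in the first and rose in the second, and 13 members passed in neither. No share over all genes was taken for these combined calls. The differentiation difference is a mean over both days, so a fall at day 21 alone lowers it too.

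**Figure D3:**
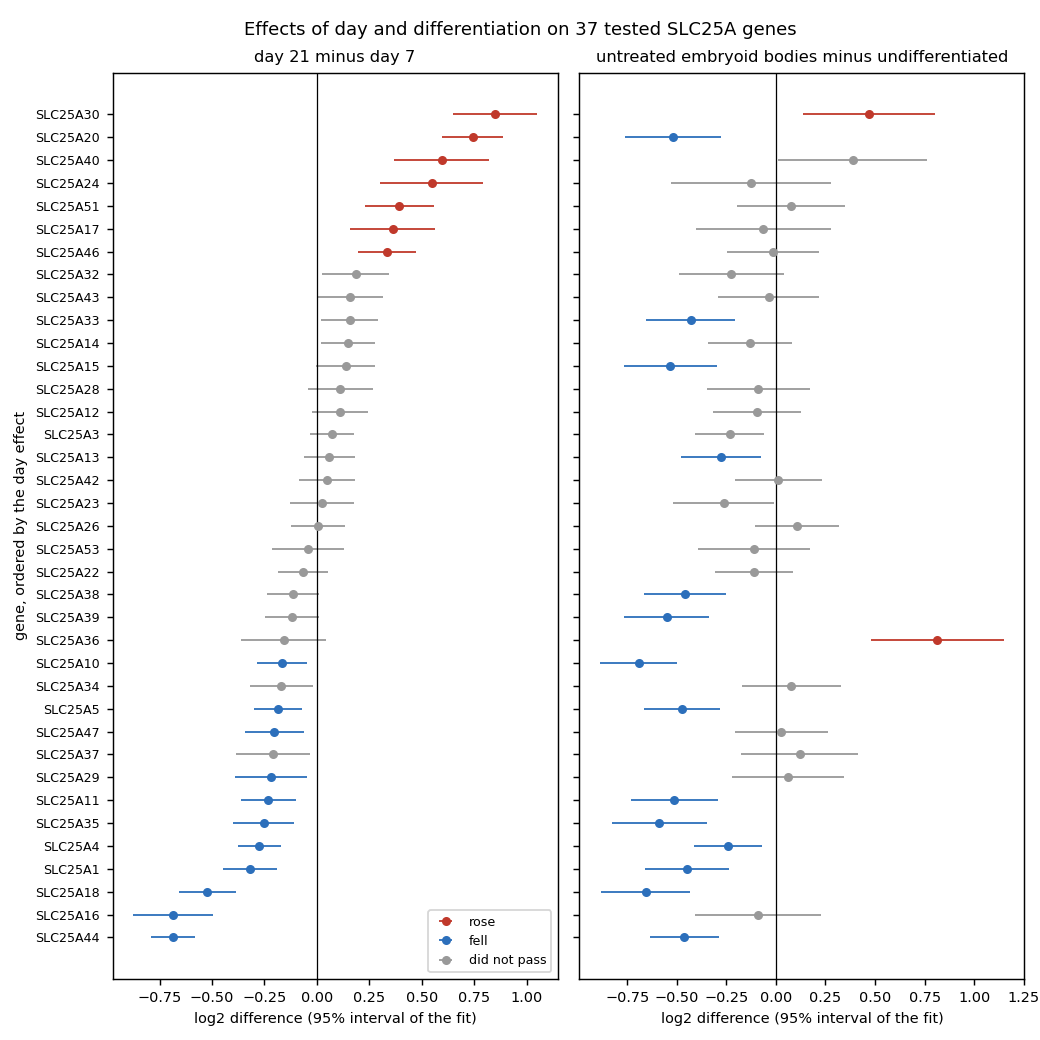
Log2 differences of the 37 tested SLC25A genes for day 21 minus day 7 (left) and untreated embryoid bodies minus undifferentiated cells (right), with 95% intervals of the fit, ordered by the day difference; colours give the call. SLC25A20 lies to the right of 0 for day and to the left for differentiation, and SLC25A36 has the largest rise in the right panel, 0.81.

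The ethanol comparison asked whether carriers differed between embryoid bodies kept with 50 mM ethanol and those kept without it, as the mean of 4 differences between arrays that shared day and FA. For the members the ethanol differences were small, none beyond 1.21-fold, and 0 of 37 passed, against 0.685% of all genes (84 of 12254). The lowest adjusted p was 0.101, while 9 members had an unadjusted limma p under 0.05, 7 higher and 2 lower with ethanol, as had 2144 of the 12254 genes. The 95% intervals of the members' differences lay between -0.47 and 0.38. The median difference was 0.06 over the members and 0.02 over all genes, with 29 of 37 members above 0, against 7232 of 12254 genes. The sign was the same in all 4 pairs for 15 members (40.5%), against 29.5% of all genes, for 12 of them upward (18.5% of all genes) and for 3 downward (11.0%), SLC25A30, SLC25A36 and SLC25A37.

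SLC25A36 had the largest difference, -0.27 ± 0.088 (adjusted p = 0.180), and was lower with ethanol in all 4 pairs: by 0.53 and 0.25 without FA at day 7 and day 21, and by 0.09 and 0.22 with FA. Leaving out the EtOH array of day 7, which stood apart, took its difference to -0.17 (adjusted p = 0.158). SLC25A37, the mitochondrial iron carrier mitoferrin of red cell precursors, had 9.25 and 9.56 in the day 7 arrays with ethanol (EtOH and EtOH+FA), against 9.74 and 9.67 in the matched arrays without it. At day 21 it had 9.29 and 9.30 with ethanol, against 9.41 and 9.40 without. Its difference was -0.20 ± 0.077 (adjusted p = 0.233), again led by the EtOH array of day 7, without which it was -0.11 (adjusted p = 0.240). The second cluster of SLC25A37, not used in the fit, did not keep this sign in all pairs. At day 7 that cluster had 8.73 (EtOH) against 9.01 (untreated), but 9.01 (EtOH+FA) against 8.93 (FA). At day 21 it had 8.91 and 8.71 with ethanol, against 9.02 and 8.81 without. In the opposite direction, SLC25A12 had 9.37 and 9.44 with ethanol at day 7, against 9.08 and 9.11 without, and 9.53 and 9.38 with ethanol at day 21, against 9.29 and 9.25 without. It was higher with ethanol in all 4 pairs, by 0.13 to 0.33, and the difference of 0.25 ± 0.058 (1.19-fold) had the lowest adjusted p, 0.101, with 0.0540 to 0.378 over the alternatives. SLC25A46 differed by 0.21 ± 0.060 (adjusted p = 0.144) and was also higher with ethanol in all 4 pairs, by 0.04 to 0.32.

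**Figure D4:**
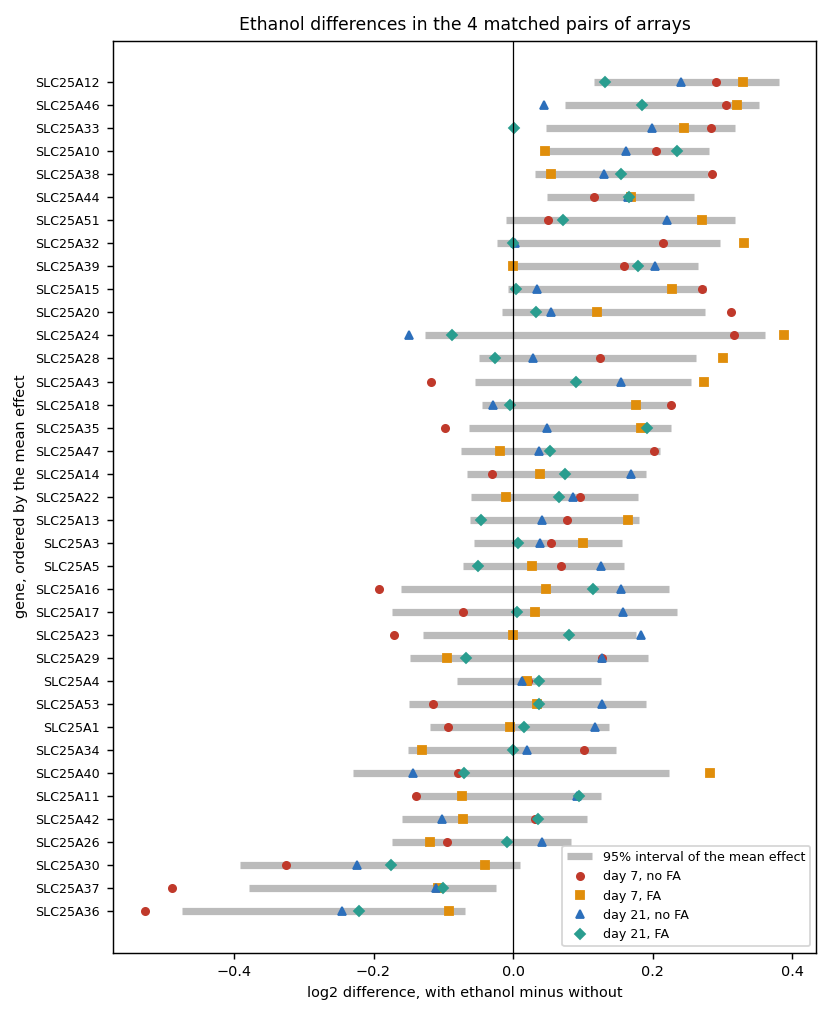
Log2 difference, with ethanol minus without, of each tested SLC25A gene in the 4 matched pairs of arrays (points), with the 95% interval of the mean difference (grey bar). Most members lie within 0.3 of 0, SLC25A12 and SLC25A46 are to the right in all 4 pairs, and SLC25A36 and SLC25A37 are to the left in all 4, farthest at day 7 without FA.

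As a mean of the 4 pairs, FA gave smaller differences still. Single pairs reached 0.35 (SLC25A36 and SLC25A40, EtOH+FA minus EtOH at day 7) and -0.34 (SLC25A17, EtOH+FA minus EtOH at day 21). No member passed (0 of 37, against 0 of 12254 genes), 0 members and 121 genes had an unadjusted limma p under 0.05, and the 95% intervals of the members lay between -0.29 and 0.24. The 4 largest were SLC25A14 (-0.12 ± 0.056), SLC25A35 (0.08 ± 0.063), SLC25A30 (-0.08 ± 0.087) and SLC25A29 (-0.07 ± 0.074), and SLC25A14 was lower with FA in all 4 pairs, by 0.02 to 0.23. The sign was the same in all 4 pairs for 4 members (10.8%), against 6.80% of all genes. The median difference was -0.0019 over the members and -0.0034 over all genes.

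Interactions were tested with 1 added term at a time. No member passed for ethanol by day (0 of 37, against 0.00816% of all genes, 1 of 12254), for FA by day or for ethanol by FA (0 of 12254 each), and the lowest adjusted p over the members was 0.453, 0.403 and 0.994. For ethanol by day, 4 members had an unadjusted p under 0.05: SLC25A24, SLC25A32, SLC25A15 and SLC25A18. The ethanol difference of SLC25A24 at day 21 minus that at day 7 was -0.47 ± 0.14, with pair differences of -0.15 and -0.09 at day 21 and 0.32 and 0.39 at day 7. For FA by day, SLC25A17 (-0.40 ± 0.11), SLC25A30 (-0.37 ± 0.12), SLC25A40 (-0.36 ± 0.15) and SLC25A53 (0.28 ± 0.11) had an unadjusted p under 0.05, and for ethanol by FA 0 members did. Over all genes, an unadjusted p under 0.05 was found for 917 genes for ethanol by day, for 1496 for FA by day and for 100 for ethanol by FA.

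Genes that work beside the carriers were read from lists of their own. Over all genes, 17.2% fell and 11.0% rose in embryoid bodies, and 22.6% fell and 26.3% rose by day 21. Of 8 tested enzymes of the malate-aspartate shuttle and of citrate use, 7 fell in embryoid bodies, ACLY (-0.89), which splits exported citrate for lipid synthesis, and GOT1 (-0.67) the most. By day 21, 5 of the 8 fell and IDH2 rose by 0.73. All 7 tested enzymes of mitochondrial folate and glycine metabolism had lower values in embryoid bodies, of which 5 passed, and 6 fell by day 21. ALDH1L2, a mitochondrial folate dehydrogenase, fell by 1.87 in embryoid bodies and MTHFD2 by 1.20. ALDH1L2 was also the single gene of these lists that passed for ethanol, 0.71 higher (adjusted p = 0.0207). Beside these enzymes, SLC25A1 and SLC25A11 fell in both comparisons, the folate carrier SLC25A32 passed in neither, and the glycine carrier SLC25A38 passed in embryoid bodies and not by day.

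Carriers outside the SLC25A names moved in both directions by day 21. Of 18 tested inner membrane transporters, 8 rose and 4 fell by day 21, and 0 rose and 6 fell in embryoid bodies. The shares over all genes, for this and the lists below, were 26.3% up and 22.6% down by day 21. In embryoid bodies they were 11.0% up and 17.2% down. SMDT1 (1.03), MCUB (0.68) and SFXN1 (0.51) rose by day 21, the first 2 being parts of the mitochondrial calcium uniporter and the third a serine carrier, while SLC8B1, a sodium-calcium exchanger, fell by 0.55. UCP2, an uncoupling protein of the same family with its own name, fell by 1.21 in embryoid bodies. Of the 3 outer membrane channels, VDAC1 fell in both comparisons. Of 13 tested genes that import and insert carriers, 6 fell in embryoid bodies, TIMM10 (-0.79) and TIMM22 (-0.65) among them, and 1 rose and 4 fell by day 21. Of 11 regulators of mitochondrial biogenesis, 4 fell in embryoid bodies and 5 by day 21, when 2 rose, and PPARGC1B, a coactivator, differed by -0.50 in embryoid bodies and by -0.58 by day 21.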

How the data were processed

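Total RNA was hybridised to 1-colour Affymetrix arrays that cover whole transcripts. The authors deposited log2 values computed with RMA, which subtracts background, applies quantile normalization and summarises probes by transcript cluster. The submitters' processing notes name Affymetrix Expression Console 1.3.1. Base 2 is inferred: values ran between 2.49 and 14.3, and array medians between 7.67 and 7.76. RMA brings the arrays to a common distribution, so a shift shared by most genes is not seen, and it compresses dim genes. No build of the annotation is given in the sources. Precision is limited by the number of arrays.

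Of 33297 clusters, 19460 had 1 gene symbol in the platform annotation, 1754 had several and 12083 were unnamed here, and the clusters with 1 symbol gave 18417 genes. Removing 6163 dim genes left 12254. limma 3.58.1 (lmFit, eBayes) with statmod 1.5.0 in R 4.3.3 fitted ethanol, FA, day and a term for the undifferentiated array, with 4 residual and 3.94 prior degrees of freedom. Benjamini-Hochberg adjustment ran over the 12254 genes. Interactions left 3 residual degrees of freedom. The fit was tested on simulated data.

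The members, roles and gene lists were chosen with earlier results of these data known. Named with values were all members past the threshold, the 4 with the largest difference where fewer passed, all dim members and up to 4 of each partner list per effect. Any other member was named for its role, after its values were seen. Alternatives were centring, other filters on dim genes, the mean of a gene's clusters, other variance moderation, fewer terms, embryoid bodies alone and leaving out each array.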

Additional observations from a re-analysis of the deposited data

How the results depend on the processing

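The labels give no replicate numbers, so no fit held a replicate block, and matching of arrays on day and treatment is part of the additive fit. Over the alternatives, the number of SLC25A genes called was 12 to 18 for differentiation and 13 to 24 for day, both extremes from leaving out single arrays, and 0 for ethanol and for FA throughout. No called member changed direction in any alternative. With centring, 12 SLC25A genes rose and 7 fell by day 21, against 7 and 11 without it. SLC25A14, SLC25A15, SLC25A32, SLC25A33 and SLC25A43 were gained and SLC25A5, SLC25A10, SLC25A29 and SLC25A47 lost. Over all genes, centring gave 3859 higher and 2093 lower for day, against 3224 and 2771, and 1083 higher and 2586 lower for differentiation, against 1345 and 2104.

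Over all genes, the count called for differentiation was 2119 without the untreated array of day 7 and up to 4833 with other arrays left out, against 3449. The ethanol count of 84 was 54 with no filter on dim genes, 148 with trend and robust moderation and 215 without the FA term. Leaving out single arrays it was 0 to 212: 0 without the FA or untreated array of day 7 or the EtOH or EtOH+FA array of day 21, 2 without the untreated and 3 without the FA array of day 21, 129 without the EtOH+FA and 212 without the EtOH array of day 7. At an unadjusted limma p under 0.05 the leave-outs that gave 0 held 1235 to 1882 genes. The cause of these differences was not tested. Signal near the dim limit limits SLC25A18, SLC25A20, SLC25A30, SLC25A34, SLC25A35, SLC25A47 and SLC25A53, which were under it on some arrays.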
